A study of Homo sapiens with 4 samples.

Results

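The AP-1 subunit genes are the genes that encode the proteins of activator protein 1, a family of dimeric transcription factors. They were taken by symbol as FOS, FOSB, FOSL1, FOSL2, JUN, JUNB, JUND, ATF3 and JDP2, and all 9 were found once among the 48162 genes of the deposited table. Poly(A) RNA was sequenced from MDA-MB-231 cells, a human line of triple-negative breast cancer with mesenchymal features. The groups were 2 libraries of cells treated with 10 µM MGH-CP1 for 24 h and 2 libraries of cells that received vehicle for the same time, all grown in DMEM with fetal bovine serum. MGH-CP1 is named in the series title as an inhibitor of the palmitoylation of TEAD, the DNA-binding partner of YAP and TAZ. The comparison asked which transcripts changed with the compound. The labels do not say that the replicates were separate cultures, so the p-values measure the spread between these libraries only, which may be technical.

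AP-1 is a dimer of basic leucine zipper (bZIP) proteins. JUN proteins can pair with each other or, more stably, with FOS proteins, whereas FOS proteins need a JUN partner. Both kinds of dimer read a short palindromic element first described as the response element to phorbol ester. FOS and FOSB are induced within minutes by growth factors through ERK and SRF and decay quickly, while FOSL1 and FOSL2, which lack the strong activation domain of FOS, accumulate under sustained ERK signalling. In triple-negative breast cancer lines FOSL1 is known as a prominent AP-1 subunit, and AP-1 and TEAD are known to occupy many of the same enhancers.

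The libraries held 16960448 and 17295817 reads with MGH-CP1 and 16790645 and 18485701 reads with vehicle. Of the genes that mark this line, VIM, CD44, EGFR, AXL and CAV1 were expressed and ESR1 and PGR were at or near 0, but SPARC, listed as present, was at most 0.453 FPKM and ERBB2, listed as low, stood at 24.5 to 26.3 FPKM. Of the other genes listed as low, GATA3 had 2.50 and 3.06 FPKM with MGH-CP1 and 4.82 and 4.37 FPKM with vehicle (limma, adjusted p = 0.00578), CDH1 had 0.489 to 0.895 FPKM over the 4 libraries and KRT5 at most 0.233 FPKM. Markers of immune cells summed to 2.90 to 3.20 FPKM with MGH-CP1 and 3.29 to 3.31 FPKM with vehicle, nearly all of it CD14. Fibroblast markers summed to 5.78 to 6.14 FPKM with MGH-CP1 and 4.96 to 7.34 FPKM with vehicle, and both matched endothelial markers were near 0. Mitochondrial transcripts took 1.81% and 1.54% of reads with MGH-CP1 against 0.676% and 0.645% with vehicle, and the nuclear noncoding RNAs MALAT1 and NEAT1 were both called higher, together at 24.5 to 30.6 FPKM with MGH-CP1 and 14.8 to 15.5 FPKM with vehicle. The part of these shifts in the values below was not tested. All 4 TEAD targets used to check the treatment (CYR61, CTGF, ANKRD1 and AMOTL2) were lower with MGH-CP1.

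With MGH-CP1 the AP-1 transcripts differed in both directions, while their summed level lay within the range of the vehicle libraries. FOSL1 was 2.63-fold lower, JUND was 2.00-fold higher and JUNB was 1.52-fold higher. FOSL2 was 1.20-fold higher, and JUN lay within 3% of its vehicle level. The small bZIP gene JDP2 was lower too, at a mean of 0.626 FPKM with MGH-CP1 and 1.86 FPKM with vehicle. FOS, FOSB and ATF3 were weakly expressed in both groups. Values are FPKM, fragments scaled by gene length and sequencing depth, a scale on which levels can be compared between genes. A gene was tested where its mean over the 4 libraries was at least 1 FPKM, and it was called where limma gave an adjusted p under 0.05 on log2(FPKM + 1) values.

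**Figure D1:**
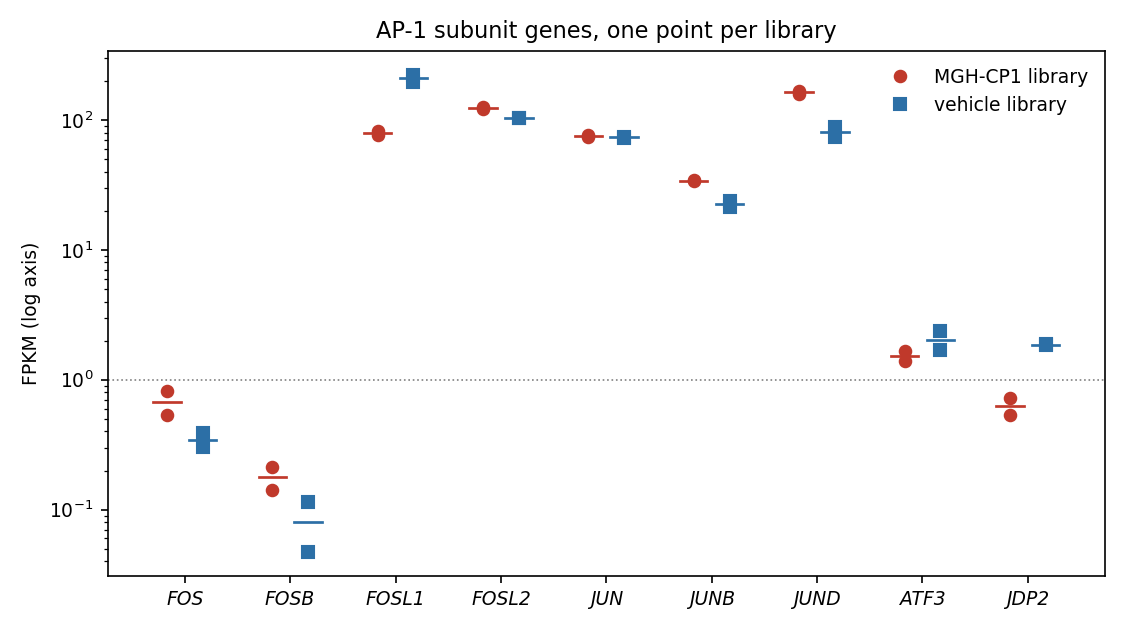
Level of each AP-1 subunit gene in FPKM on a log axis, with a circle for each MGH-CP1 library, a square for each vehicle library and a bar for the group mean; the dotted line marks the 1 FPKM limit for testing. FOSL1 sits between 77.1 and 82.2 FPKM with MGH-CP1 and between 196 and 223 FPKM with vehicle, and JUND moves the other way.

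Of the 9 genes, 7 reached the limit for testing and FOS and FOSB did not. Among those 7, 3 were called higher (JUND, JUNB and FOSL2), 2 were called lower (FOSL1 and JDP2), and JUN and ATF3 were not called. Over all 11790 genes tested, 20.0% were called higher, 25.1% lower and 45.0% in either direction, so calls as such were common in these libraries. The balance of the directions depended on scaling: 2355 genes were higher and 2956 lower as deposited, against 2845 and 2463 after a shift to equal medians and 2803 and 2590 after quantile normalization. Without MGH-CP1 replicate 1 or 2 the number called higher was 1524 or 1460. JDP2 passed the limit only through its vehicle level, so the count of called members is a description. The groups did not overlap for 8 of the 9 genes. In 5 of these (FOS, FOSB, FOSL2, JUNB and JUND) both MGH-CP1 libraries were the higher ones. In the other 3 (FOSL1, ATF3 and JDP2) both were the lower ones. Over all genes tested the shares were 34.7% higher and 39.4% lower, or 74.1% in either direction. FOS and FOSB do not belong to that tested set, so the 2 sets are unlike. The median log2 difference over all 9 genes, with no limit on low values, was 0.12, and over the 24640 genes with any read it was -0.00. The 0.12 is the value of FOSB, which had only 3 to 14 reads per library. Over the 7 tested members the median was 0.04, and over all genes tested it was -0.02.

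**Figure D2:**
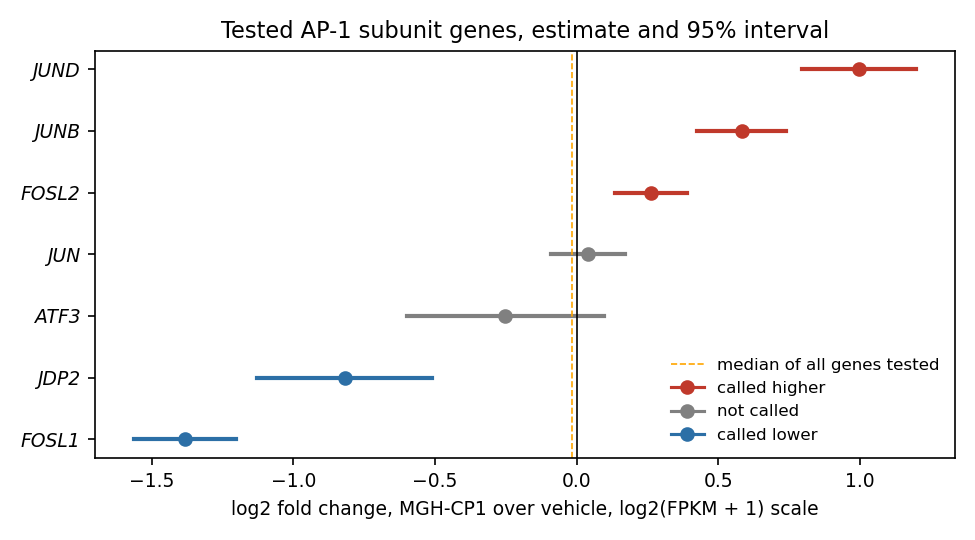
Log2 fold change of MGH-CP1 over vehicle for the 7 tested AP-1 subunit genes on the log2(FPKM + 1) scale, with limma's 95% interval as a line and the median of all genes tested (-0.02) as a dashed line. JUND (1.00) and FOSL1 (-1.38) lie at opposite ends, and the interval of JUN spans 0.

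RefSeq promoter windows of 300 bases (250 before and 50 after a start site, GRCh38.p14) were at hand for 8 of the 9 genes, in 11 entries, and the gene with no match was FOSL1. The windows of the 3 genes called higher and of JUN are shown because AP-1 genes are known to be regulated by AP-1 and related bZIP proteins themselves. Capitals mark the AP-1 element TGACTCA, the cyclic AMP element TGACGTCA and the related octamer TGACATCA, searched on both strands, and no 2 marked matches overlap. Each line gives the gene, its position and its strand, and the sequence runs 5′ to 3′ along that strand.
JUND (chr19:18281573-18281872, minus strand): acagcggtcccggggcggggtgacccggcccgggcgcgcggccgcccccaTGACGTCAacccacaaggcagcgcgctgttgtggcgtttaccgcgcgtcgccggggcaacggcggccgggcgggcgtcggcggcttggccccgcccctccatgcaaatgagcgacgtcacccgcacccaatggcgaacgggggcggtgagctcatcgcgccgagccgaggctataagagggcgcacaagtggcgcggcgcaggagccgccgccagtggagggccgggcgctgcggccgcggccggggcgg
JUNB (chr19:12791236-12791535, plus strand): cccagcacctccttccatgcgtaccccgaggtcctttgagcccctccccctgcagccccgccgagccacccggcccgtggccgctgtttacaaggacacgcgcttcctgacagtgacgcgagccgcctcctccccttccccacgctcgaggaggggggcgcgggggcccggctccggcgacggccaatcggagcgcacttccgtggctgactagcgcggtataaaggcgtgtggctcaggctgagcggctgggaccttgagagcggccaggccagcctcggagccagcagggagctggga
FOSL2 (chr2:28392608-28392907, plus strand): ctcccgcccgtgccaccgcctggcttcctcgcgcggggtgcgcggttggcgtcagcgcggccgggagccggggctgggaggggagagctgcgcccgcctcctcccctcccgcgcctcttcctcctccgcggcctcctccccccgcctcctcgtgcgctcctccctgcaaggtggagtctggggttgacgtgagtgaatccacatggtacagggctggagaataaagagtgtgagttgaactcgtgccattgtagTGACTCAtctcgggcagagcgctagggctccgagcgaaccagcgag
JUN (chr1:58783998-58784297, minus strand): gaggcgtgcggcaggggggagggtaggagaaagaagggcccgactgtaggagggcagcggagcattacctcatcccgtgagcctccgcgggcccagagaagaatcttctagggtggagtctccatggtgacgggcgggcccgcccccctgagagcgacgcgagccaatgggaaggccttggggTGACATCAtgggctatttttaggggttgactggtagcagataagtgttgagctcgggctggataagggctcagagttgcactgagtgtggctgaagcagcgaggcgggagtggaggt

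Positions are counted from 0 at the first transcribed base. Of the 11 entries, TGACGTCA was found in that of JUND alone, beginning at position -200. TGACTCA was found in the window of FOSL2 alone, beginning at position 4. TGACATCA was found in the window of JUN, beginning at position -67, and in an ATF3 window, beginning at position -123. The other ATF3 window held no match to it. The window of JUNB held none of the 3. Over all 35116 promoter entries, 4.95% held TGACTCA, 1.85% held TGACGTCA and 2.61% held TGACATCA. The TEAD core GGAATG, searched on both strands, was found in 1 of the 11 entries, a JDP2 window, against 14.0% of all entries. The GC box GGGCGG, on either strand, was found in 9 of the 11 entries against 45.0% of all. It had 6 matches in the window of JUND and 6 in another JDP2 window. The CArG box bound by SRF was found in 0 of the 11 against 1.29% of all. These are matches of letters and not shown binding sites. Bases more than 250 before or 50 after a start site were not searched. A count of 0 therefore does not show that a gene lacks the element, which holds for FOS and the CArG box too.

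FOSL1, which encodes Fra-1, was the most abundant AP-1 subunit transcript in vehicle-treated cells and fell with MGH-CP1. It had 82.2 and 77.1 FPKM in MGH-CP1 libraries, against 223 and 196 FPKM in vehicle libraries, from 2183 to 6893 reads per library. The groups were far apart compared with the gap between replicates. The log2 fold change was -1.38 ± 0.08 (SE; limma, adjusted p = 3.41e-05), and 99 of the 11790 tested genes fell by at least as much. FOSL1 (ENSG00000175592) lies at hg19 chr11:65659520-65668044 on the minus strand. By mean level it ranked 693rd of the tested genes with MGH-CP1 and 204th with vehicle. The gene next to it, CCDC85B, lies 415 bases away and was also lower, at 168 and 163 FPKM with MGH-CP1 and 228 and 209 FPKM with vehicle. Of the 9 tested genes within 100 kb of FOSL1, 4 were called lower and 5 were not called. Over all genes tested, 25.1% were called lower and 45.0% in either direction.

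FOSL2, which encodes Fra-2, is the other FOS-type subunit expressed at a high level in these cells. It had 122 and 126 FPKM with MGH-CP1 and 103 and 104 FPKM with vehicle, on 11689 to 14354 reads per library, the most of any of the 9 genes. Both MGH-CP1 values were above both vehicle values. The log2 fold change was 0.26 ± 0.05 (limma, adjusted p = 0.00668). Leaving out MGH-CP1 replicate 2 ended this call (0.24; limma, adjusted p = 0.084), and no other alternative gave a higher adjusted p. FOSL2 (ENSG00000075426) lies at hg19 chr2:28615315-28640179 on the plus strand.

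FOS, the immediate early subunit after which the family is named, was barely expressed. It had 0.536 and 0.820 FPKM with MGH-CP1 and 0.301 and 0.386 FPKM with vehicle, from 20 and 30 reads with MGH-CP1 and 12 and 14 with vehicle. The pooled reads gave a ratio of 1.98 with an exact 95% interval of 1.21 to 3.31, which covers counting error only. When all genes were kept and the recovered reads were tested with voom, a setting added after the data were seen, the log2 fold change was 0.94 with a 95% interval of -0.00 to 1.88 and did not pass (limma, adjusted p = 0.166). FOSB, a second rapidly induced subunit, had 0.214 and 0.141 FPKM with MGH-CP1 and 0.115 and 0.0473 FPKM with vehicle, on 3 to 14 reads per library. Its pooled reads gave a ratio of 2.15, with a counting interval of 1.01 to 4.89. Its interval in the same voom fit ran from -0.22 to 2.48 (limma, adjusted p = 0.261). FOSB lies wholly inside ERCC1, a repair gene on the opposite strand at 11.8 FPKM with MGH-CP1 and 11.3 FPKM with vehicle, and the use of strand in counting is not given in the sources used here, so its value is uncertain. Both counting intervals thus excluded 1, while neither interval over the 2 libraries per group excluded 0, and neither gene is called here.

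JUND, a JUN-type subunit that is less dependent on growth factors than JUN and is known to restrain proliferation in mouse fibroblasts, rose the most of the 7 tested. It had 159.8 and 166 FPKM with MGH-CP1 and 88.5 and 74.4 FPKM with vehicle, on 2336 to 5265 reads per library. The lowest MGH-CP1 value was well above the highest vehicle value. The log2 fold change was 1.00 ± 0.09 (limma, adjusted p = 0.000148), and 121 of the tested genes rose by at least as much. JUND (ENSG00000130522) lies at hg19 chr19:18390563-18392432 on the minus strand, and its mean level ranked 271st of the tested genes with MGH-CP1 and 694th with vehicle. Of 5 tested genes within 100 kb, 2 were called higher and 2 lower, beside 20.0% and 25.1% of all genes tested. The higher ones were PGPEP1, a peptidase gene, and GDF15, the stress cytokine gene, which lies 93109 bases away and had 9.71 and 9.77 FPKM with MGH-CP1 against 0.786 and 1.59 FPKM with vehicle.

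JUNB, a JUN-type subunit that activates weakly as a homodimer and can oppose JUN, also rose. It had 34.2 and 34.0 FPKM with MGH-CP1 and 23.6 and 21.4 FPKM with vehicle, on 652 to 1075 reads per library. The groups did not overlap. The log2 fold change was 0.58 ± 0.07 (limma, adjusted p = 0.000518). JUNB (ENSG00000171223) lies at hg19 chr19:12902310-12904124 on the plus strand, and its whole length is covered by HOOK2 on the opposite strand. HOOK2 was itself higher, at 8.62 and 8.83 FPKM with MGH-CP1 and 6.42 and 6.48 FPKM with vehicle, with at most 390 reads in a library. Reads of the pair cannot be told apart without strand, so the value of JUNB is uncertain.

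JUN, the founding JUN-type subunit and a substrate of the JNK kinases, did not pass. It had 77.2 and 74.0 FPKM with MGH-CP1 and 74.5 and 72.5 FPKM with vehicle, on 4041 to 4576 reads per library. The groups overlapped. The log2 difference was 0.04 with a 95% interval of -0.09 to 0.17 (limma, adjusted p = 0.597), so a change as large as that of JUNB lay outside the interval. JUN (ENSG00000177606) lies at hg19 chr1:59246465-59249785 on the minus strand.

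ATF3 and JDP2 are small bZIP proteins that form dimers with JUN proteins and are best known as repressors at AP-1 sites, ATF3 being also a stress-induced gene. ATF3 had 1.67 and 1.39 FPKM with MGH-CP1 and 1.69 and 2.36 FPKM with vehicle, on 50 to 84 reads per library. One library of each group lay almost together, and the log2 difference of -0.25 did not pass (95% interval -0.60 to 0.10; limma, adjusted p = 0.203). Leaving out vehicle replicate 1 made it a call (-0.41; limma, adjusted p = 0.0488), whereas leaving out vehicle replicate 2 gave -0.089 and the highest adjusted p among the alternatives, 0.669 by limma. JDP2 had 0.717 and 0.535 FPKM with MGH-CP1 and 1.87 and 1.85 FPKM with vehicle, from 67 and 49 reads with MGH-CP1 and 187 and 168 with vehicle. The 2 vehicle libraries were nearly equal and both were more than 2 times the higher MGH-CP1 library. Its log2 fold change was -0.82 ± 0.13 on the log2(FPKM + 1) scale (limma, adjusted p = 0.0023) and -1.58 by voom on the recovered reads, since the pseudocount shrinks the change of so low a gene. Both genes stand beside other bZIP genes in the genome. On hg19 JDP2 (chr14:75894419-75940814) lies 145 kb from FOS and 48.0 kb from BATF, and BATF3 is the tested gene within 100 kb of ATF3. Neither BATF, at 1.36 and 2.17 FPKM with MGH-CP1 and 1.77 and 1.82 FPKM with vehicle, nor BATF3 was called.

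The order of the 9 levels differed between the groups at the top. With MGH-CP1 the order was JUND, FOSL2, FOSL1, JUN, JUNB, ATF3, FOS, JDP2 and FOSB, with overlapping ranges for FOSL1 and JUN and for FOS and JDP2. With vehicle it was FOSL1, FOSL2, JUND, JUN, JUNB, ATF3, JDP2, FOS and FOSB, with overlapping ranges for JUND and JUN and for ATF3 and JDP2. FOSL1 thus held the third place with MGH-CP1 and the top place with vehicle, and JUND the reverse.

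**Figure D3:**
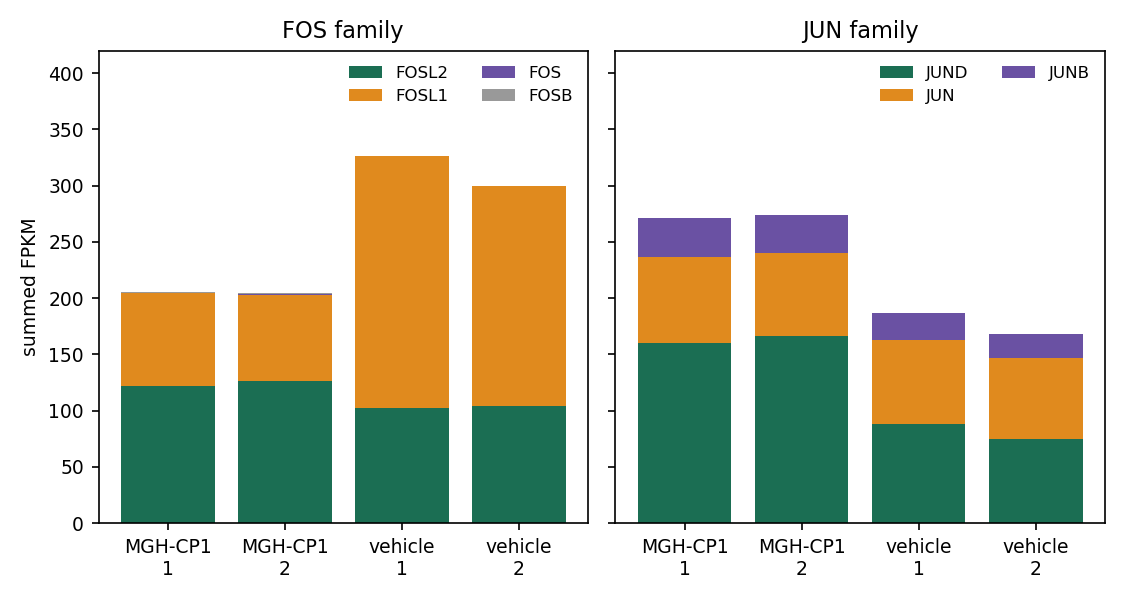
Summed FPKM of the FOS family (left) and the JUN family (right) in each library, with MGH-CP1 libraries left of vehicle libraries and 1 colour per gene. FOS-family sums are 205 and 204 FPKM with MGH-CP1 and 327 and 299.9 FPKM with vehicle, and JUN-family sums run the other way.

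Summed over FOS, FOSB, FOSL1 and FOSL2, the FOS family stood at 205 ± 0.634 FPKM with MGH-CP1 and 313 ± 18.8 FPKM with vehicle (SD, n = 2 each). The JUN family stood at 273 ± 2.02 FPKM with MGH-CP1 and 177 ± 13.0 FPKM with vehicle. Neither family's groups overlapped. In the FOS family FOSL1 alone had a lower mean with MGH-CP1, at 79.7 FPKM against 210 FPKM with vehicle. The means of FOSL2, FOS and FOSB were higher. In the JUN family most of the difference was that of JUND, at 163 FPKM with MGH-CP1 against 81.4 FPKM with vehicle. JUNB had means of 34.1 and 22.5 FPKM and JUN of 75.6 and 73.5 FPKM in the same order. FOS-type transcripts per JUN-type transcript thus numbered 0.757 and 0.745 in MGH-CP1 libraries and 1.75 and 1.78 in vehicle libraries. All 9 genes together summed to 479 and 480.2 FPKM with MGH-CP1 and to 517 and 472 FPKM with vehicle, where the groups overlapped. With 2 libraries against 2, the exact two-sided permutation test cannot go below p = 0.33, the value it gave for both family sums and for their ratio.

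Within the FOS family, FOSL1 gave 40.1% and 37.8% of the FPKM with MGH-CP1 and 68.4% and 65.3% with vehicle. FOSL2 gave 59.6% and 61.8% with MGH-CP1 and 31.5% and 34.6% with vehicle. On this scale FOSL2 was thus the larger with MGH-CP1 and FOSL1 with vehicle. In reads, which are not scaled by length, FOSL2 was the larger in every library, at 85.5% and 86.6% of the family with MGH-CP1 and 64.8% and 68.0% with vehicle. FOS and FOSB together were under 1% in every library. Within the JUN family, JUND gave 58.9% and 60.6% with MGH-CP1 and 47.4% and 44.2% with vehicle. JUN gave 28.5% and 27.0% with MGH-CP1 and 39.9% and 43.1% with vehicle, whereas the share of JUNB was 12.6% and 12.4% with MGH-CP1 and 12.6% and 12.7% with vehicle. A ratio of 2 genes of 1 library does not change when the whole library is scaled by 1 factor. Quantile normalization is not such a scaling, and the level of the ratio depends on the gene lengths used. FOSL1 over JUND was 0.515 and 0.465 with MGH-CP1 and 2.53 and 2.63 with vehicle. It had to be the widest of the 6 gene ratios formed, since of their genes FOSL1 fell most and JUND rose most. JUND over JUN was 2.07 and 2.24 with MGH-CP1 and 1.19 and 1.03 with vehicle. For every one of these shares and ratios the exact permutation p was 0.33, the smallest possible. Transcript levels say nothing of the amounts or the pairing of the proteins.

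The 3 genes whose 4 values followed those of JUND and FOSL1 most closely were sought by the Euclidean distance between log2(FPKM + 1) values taken relative to the vehicle mean, over 4 libraries. For JUND they were CLDN7, a tight junction claudin gene (distance 0.0867), MXD4, which encodes a MAX partner that opposes MYC (0.0997), and AP000769.1 (0.1). MXD4 had 53.1 and 55.7 FPKM with MGH-CP1 and 28.3 and 26.1 FPKM with vehicle. For FOSL1 they were NOP16, a nucleolar protein gene (0.0252), RFC2, a subunit of the clamp loader of DNA replication (0.0736), and SKA1, a kinetochore protein gene (0.102). RFC2 had 17.4 and 16.1 FPKM with MGH-CP1 and 48.7 and 40.1 FPKM with vehicle. CLDN7 overlaps ELP5 and NOP16 overlaps HIGD2A on the opposite strand, so both are uncertain.

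Genes around AP-1 were described with 8 lists that hold 142 entries. Of these, 141 were matched and 120 were tested, with 43 called higher and 25 lower. Beside them, 20.0% of all genes tested were called higher and 25.1% lower, and the median log2 fold change of all genes tested was -0.02.

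**Figure D4:**
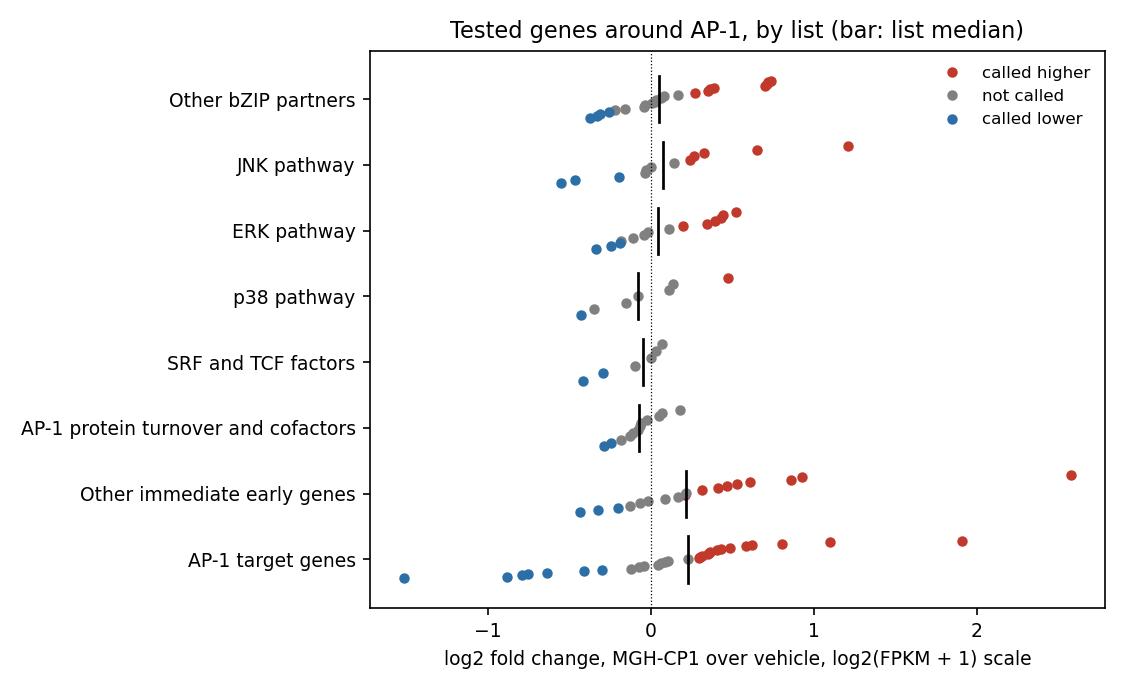
Log2 fold change of MGH-CP1 over vehicle on the log2(FPKM + 1) scale for each tested gene of 8 lists around AP-1, with a point per gene coloured by its call and a bar at the list median. The AP-1 target genes spread from -1.52 (PLAU) to 1.91 (PTGS2), and RHOB at 2.58 stands apart among the immediate early genes.

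Other bZIP genes, which encode dimer partners of AP-1 proteins or their relatives, had 8 of 22 tested members higher and 4 lower, with a median log2 fold change of 0.05. The largest changes were rises. CEBPD, a C/EBP factor of the acute response, had 26.3 and 27.0 FPKM with MGH-CP1 and 16.5 and 14.8 FPKM with vehicle (log2 fold change 0.73 ± 0.07; limma, adjusted p = 0.000242). MAFK, a small MAF protein that pairs with NRF2 and BACH1, had 19.5 and 19.3 FPKM with MGH-CP1 and 12.3 and 10.6 FPKM with vehicle. CEBPB, a C/EBP factor of inflammatory genes, had 78.9 and 79.0 FPKM with MGH-CP1 and 53.0 and 43.2 FPKM with vehicle. In each of the 3, both MGH-CP1 libraries were above both vehicle libraries. Without MGH-CP1 replicate 2 the number called lower was 1.

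The kinase cascades that act on AP-1 showed calls in both directions. In the JNK list, whose kinases phosphorylate JUN, 5 of 12 tested genes were higher and 3 lower (median 0.07). MAPK8IP3, a JNK scaffold gene, had 13.1 and 13.4 FPKM with MGH-CP1 and 5.23 and 5.10 FPKM with vehicle (log2 fold change 1.21 ± 0.07; limma, adjusted p = 4.29e-05). It overlaps NME3 and the antisense transcript LA16c-361A3.3 on the opposite strand, so its value is uncertain. Mean levels of NME3 were 19.0 FPKM with MGH-CP1 and 17.4 FPKM with vehicle. Those of LA16c-361A3.3 were 2.18 and 0.699 FPKM in the same order. MAP3K5, which encodes the stress kinase ASK1, rose by 0.65 ± 0.09 on the log2 scale and MAP3K4 fell by 0.55. Leaving out either MGH-CP1 library brought the JNK genes called higher to 3, and leaving out MGH-CP1 replicate 2 brought those called lower to 1. In the ERK list 6 of 14 genes were higher and 3 lower (median 0.05), the largest changes being the rises of RPS6KA2, MAPK3 and KSR1 by 0.52, 0.44 and 0.43 on the log2 scale. The number of ERK genes called lower was 1 without MGH-CP1 replicate 1 and 0 without MGH-CP1 replicate 2. The call of KSR1, a scaffold of the cascade, did not hold in 3 of the alternatives, with adjusted p by limma at most 0.0714. In the p38 list 1 of 7 genes was higher, MAPK13 at 52.5 and 53.2 FPKM with MGH-CP1 and 38.7 and 37.1 FPKM with vehicle, and 1 was lower, the p38 activator MAP2K3. Without vehicle replicate 2 the number called lower was 3.

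SRF and its ETS partners carry growth factor signals to FOS. The list of these genes together with MKL1 and MKL2 had 2 of 6 genes lower and none higher. SRF had 36.6 and 35.7 FPKM with MGH-CP1 and 51.4 and 46.1 FPKM with vehicle (log2 fold change -0.42 ± 0.07; limma, adjusted p = 0.0024), and ELK3 fell by 0.29 on the same scale. Leaving out MGH-CP1 replicate 1 ended the call of ELK3 (limma, adjusted p = 0.0697), which left 1 gene called. Among 12 genes of AP-1 protein turnover and cofactors 2 were lower, NACA and SMARCD1, by 0.29 and 0.24 on the log2 scale, and the other 10 did not pass. Leaving out MGH-CP1 replicate 2 ended the call of NACA (limma, adjusted p = 0.0841), which overlaps PRIM1 on the same strand, at 2.06 FPKM with MGH-CP1 and 10.3 FPKM with vehicle. The number called lower was 1 with no filter, after a shift to equal medians and after quantile normalization. The number called higher was 1 by voom on recovered reads, after either of these normalizations and with the replicate block. Both numbers also changed when a library was left out. The call of SMARCD1 failed in 5 of the alternatives, with adjusted p by limma at most 0.174.

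Other immediate early genes, which share rapid induction with FOS, had 9 of 18 tested members higher and 3 lower, with a median log2 fold change of 0.21, and 7 lay below the limit for testing. One of the 9, NR4A2, passed the limit only through its MGH-CP1 level, at 1.40 and 1.68 FPKM with MGH-CP1 and 0.670 and 0.652 FPKM with vehicle, so the count is a description. RHOB, a small GTPase gene, had 76.8 and 78.6 FPKM with MGH-CP1 and 11.9 and 12.5 FPKM with vehicle (log2 fold change 2.58 ± 0.06; limma, adjusted p = 6.65e-06). ZFP36, which encodes the mRNA decay factor tristetraprolin, had 11.3 and 12.7 FPKM with MGH-CP1 and 6.09 and 5.60 FPKM with vehicle. IER5L had 10.8 and 10.9 FPKM with MGH-CP1 and 6.40 and 4.78 FPKM with vehicle. The groups of all 3 were well separated. EGR1, the classic companion of FOS, was named after its values were seen and did not pass, at 2.27 and 2.52 FPKM with MGH-CP1 and 1.88 and 1.96 FPKM with vehicle (limma, adjusted p = 0.152).

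AP-1 target genes had 14 of 29 tested members higher and 7 lower, with a median log2 fold change of 0.23, and 6 of the 35 matched genes lay below the limit for testing. The largest changes were in opposite directions. PTGS2, which encodes the inducible prostaglandin synthase COX-2, had 6.58 and 7.26 FPKM with MGH-CP1 and 0.911 and 1.32 FPKM with vehicle (log2 fold change 1.91 ± 0.13; limma, adjusted p = 5.64e-05). IL1B, an inflammatory cytokine gene, had 16.7 and 15.9 FPKM with MGH-CP1 and 6.30 and 7.96 FPKM with vehicle. PLAU, which encodes the protease urokinase, had 24.9 and 21.5 FPKM with MGH-CP1 and 69.7 and 66.5 FPKM with vehicle (log2 fold change -1.52 ± 0.08; limma, adjusted p = 2.85e-05). No group of these 3 genes overlapped with the other.

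Further targets, named here after their values were seen, also divided. HBEGF, IL11, CSF2, CCND1 and IL8 fell with PLAU, and they include growth factor and cytokine genes and the cyclin D1 gene CCND1. Their calls under the alternatives are not given here. HBEGF had 27.5 and 22.9 FPKM with MGH-CP1 and 48.3 and 46.0 FPKM with vehicle. The matrix protease genes MMP1 and MMP14 were instead higher. MMP1 had 47.7 and 46.9 FPKM with MGH-CP1 and 38.7 and 36.9 FPKM with vehicle (log2 fold change 0.31; limma, adjusted p = 0.00383). VEGFA, the angiogenic factor gene, had 41.7 and 39.1 FPKM with MGH-CP1 and 22.9 and 22.5 FPKM with vehicle. HMGA1 and PLAUR did not pass, HMGA1 at 1191 and 1188 FPKM with MGH-CP1 and 1346 and 1247 FPKM with vehicle.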

How the data were processed

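Poly(A) RNA of MDA-MB-231 cells was sequenced in 4 libraries, 2 with MGH-CP1 and 2 with vehicle, grouped by their titles. The authors deposited 1 table of FPKM values per gene. Per the submitters' processing notes, CASAVA 1.8 and STAR were used with hg19. Which counter and annotation release made the table, and whether it used strand, is not given in the sources used here. Coordinates are those of the authors' table, and promoter sequences are RefSeq's on GRCh38.p14.

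Multiplied by gene length, 100% of values above 0 were whole multiples of 1 step per library within 0.001, and these multiples were taken as reads. A read on 1 kb was worth 0.0541 to 0.0596 FPKM. The median chi-square per gene between replicates was 1.05 with MGH-CP1 and 1.78 with vehicle, against 0.455 from sampling alone, so no library was a copy.

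MGH-CP1 was compared with vehicle by limma 3.58.1 in R 4.3.3 on log2(FPKM + 1), with a variance trend, over genes whose mean reached 1 FPKM. P-values were adjusted by Benjamini-Hochberg over all 11790 genes tested and called under 0.05. This scale understates the change of low genes. The procedure was run on simulated data in which few genes changed and all shared a common spread. Calls were far more common in the real libraries, so that run does not show the rate of false calls here. Intervals on reads cover counting error only. In each list the 3 called genes with the largest change are named, together with every AP-1 subunit gene and 3 genes of like pattern for the largest rise and fall. The members, lists and rules were chosen with earlier results of these data known, so lists are described by counts and medians with no test of their own. One gene of these lists is counted but not reported here. Alternatives were another pseudocount, other filters, voom on recovered reads, 2 other normalizations, no variance trend, the replicate number as a block, and leaving out each library. Tables were made in Python 3.11.15 with pandas 2.3.3, exact tests in scipy 1.17.1 and plots in matplotlib 3.10.9.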

Additional observations from a re-analysis of the deposited data

How the results depend on the processing

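Over the 12 alternatives, and in voom with all genes kept, which was added after the data were seen, FOSL1 kept its fall (log2 fold change -1.48 to -1.29; limma, highest adjusted p = 0.00532, with no filter) and JUND its rise (0.87 to 1.12; limma, highest adjusted p = 0.011, with no filter), as did JUNB and, where it was tested, JDP2, while JUN was not called in any. JDP2 is not tested at a mean of at least 5 FPKM, which leaves 1 subunit gene called lower. The FOSL2 call was lost without MGH-CP1 replicate 2 (0.24) and its values without 1 library each ran from 0.24 to 0.29. ATF3 was called without vehicle replicate 1 (-0.41), and its values without 1 library each ran from -0.41 to -0.089. The number of all genes called higher was 1568 with no filter and 1460 to 2556 without 1 library each. In reads in place of FPKM, the share of FOSL1 in its family differed by -19.8 percentage points rather than -27.9, and the FOS-to-JUN ratio was 0.656 of its vehicle value rather than 0.425, since reads are not scaled by gene length. Without 1 library each, the genes of the 8 lists called lower ranged from 13 (without MGH-CP1 replicate 2) to 29. The alternatives were also read for 25 other genes, namely the genes named by rule in the 8 lists and the 4 TEAD targets. Of their 298 values, 10 lost their call and 0 changed sign. Such values are not given for the remaining genes named above, apart from the AP-1 subunits. With the replicate number as a block, the counts of subunit genes called were again 3 higher and 2 lower, and all genes called were 2453 higher and 3036 lower. Deviations of same-numbered libraries correlated by 0.0502, and the labels give the number no meaning, so the block is no pairing of the design. The 2 libraries per group and, for FOS, FOSB, ATF3 and JDP2, at most 187 reads per library limit the precision.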
